A study of Mus musculus with 6 samples.

Results

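Lck, Zap70, Lat, Lcp2, Fyn, Prkcq, Themis and Cd28 encode proteins that act first when the T cell receptor binds antigen, namely 4 kinases, 2 adaptors, the signaling regulator Themis and the costimulatory receptor CD28. These 8 genes were chosen by name for that role, and all 8 were found among the 47729 genes of the count table. All 8 also passed the filter on low counts, which left 15330 genes for testing, and each was counted in every library. RNA-seq was performed on spleens of female NOD.B10 mice (strain NOD.B10Sn-H2b/J), a strain that develops a disease resembling primary Sjögren's syndrome, and of female BL/10 mice (strain C57BL10/SnJ), the healthy controls. There were 3 libraries per strain, given as biological replicates, and no treatment or engineered allele was listed for either strain. The 3 NOD.B10 libraries and BL/10 replicate 1 carry an age of 26 weeks, and BL/10 replicates 2 and 3 carry 36 weeks, although the study describes its mice as age-matched. Age and strain therefore cannot be told apart for those 2 libraries.

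The strain labels conflict. For each of the 6 samples, the title and strain field name one strain while the description and the column of the count table name the other. The strain of the description was used here, so every direction given below would be the opposite under the titles, and so would the strain that holds the libraries of 36 weeks. The libraries held 16476126, 16257041 and 17160323 counted reads in NOD.B10 replicates 1, 2 and 3 and 18298451, 15662712 and 17935130 in BL/10 replicates 1, 2 and 3. Levels are given as CPM after TMM normalization, and p-values measure the spread between these samples.

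When the receptor binds a peptide on an MHC molecule, Lck, held at the CD4 and CD8 coreceptors, phosphorylates the CD3 and zeta chains, and Zap70 docks on the phosphorylated chains. Zap70 then phosphorylates the membrane adaptor Lat and the cytosolic adaptor Lcp2 (SLP-76), which together gather phospholipase C gamma and start the calcium, Ras and protein kinase C theta (Prkcq) branches, while CD28 adds a costimulatory signal when it binds CD80 or CD86. In the spleen these proteins are known mainly from the T cells of the white pulp. Some of them, Fyn and Lcp2 included, also act in platelets, mast cells, neutrophils and natural killer cells.

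Markers of the labelled tissue were present. The B cell marker Ms4a1 stood at 1221 ± 124 CPM in NOD.B10 and 1160.4 ± 513 CPM in BL/10 (SD, n = 3 each), and Hmox1, of red pulp macrophages, at 1006 ± 289 CPM in NOD.B10 and 1026 ± 159 CPM in BL/10. BL/10 replicates 1 and 2 stood apart from the rest in genes of a neighboring organ. The 12 pancreas acinar markers summed to 31.0, 29.4 and 22.1 CPM in NOD.B10 replicates 1, 2 and 3 and to 12803, 1982 and 109 CPM in BL/10 replicates 1, 2 and 3, with Cela1 the most abundant. They made up 1.29% of the counts of BL/10 replicate 1. With hemoglobin, immunoglobulin and pancreas genes taken out of the fit, 7 of the 8 genes passed with a median log2 fold change of 1.09. In that fit 2695 of 15080 genes passed in either direction. An effect of admixed pancreas tissue on other genes was not tested. Without BL/10 replicate 1, 7 of the 8 genes still passed the threshold, with a median log2 fold change of 1.22. Calls across the table rose in that fit as well, to 4107 of 15590 genes from 2656 of 15330 with all libraries.

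In all, 7 of the 8 genes were higher in NOD.B10 spleens by edgeR's quasi-likelihood test (threshold 0.05 on the adjusted p), none was lower, and Lcp2 did not pass. Among all 15330 genes tested, 9.11% were called higher and 8.22% lower. The same 7 genes had all 3 NOD.B10 libraries above all 3 BL/10 libraries, a pattern found in 20.5% of the genes tested. Their log2 fold changes ran from 0.55 for Fyn to 1.32 for Cd28, that of Lcp2 was -0.13, and the median of the 8 was 1.09, against 0.00060 over all genes tested. With genes ordered from the highest signed log2 fold change to the lowest, Cd28 ranked 450 and Lck 476 of the 15330 genes, whereas Fyn ranked 1575 and Lcp2 9883. These are bulk libraries, in which fewer cells of a type and less RNA per cell cannot be told apart. Leaving out single libraries lowered the count of genes called to 5 of 8, Themis and Prkcq being the genes lost. This was so without NOD.B10 replicate 3, without BL/10 replicate 2 and without BL/10 replicate 3. Those fits called 1395, 1580 and 1744 genes across the table in that order, in place of 2656. Without the 2 libraries labelled 36 weeks, the median log2 fold change of the 8 genes was 0.79.

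**Figure D1:**
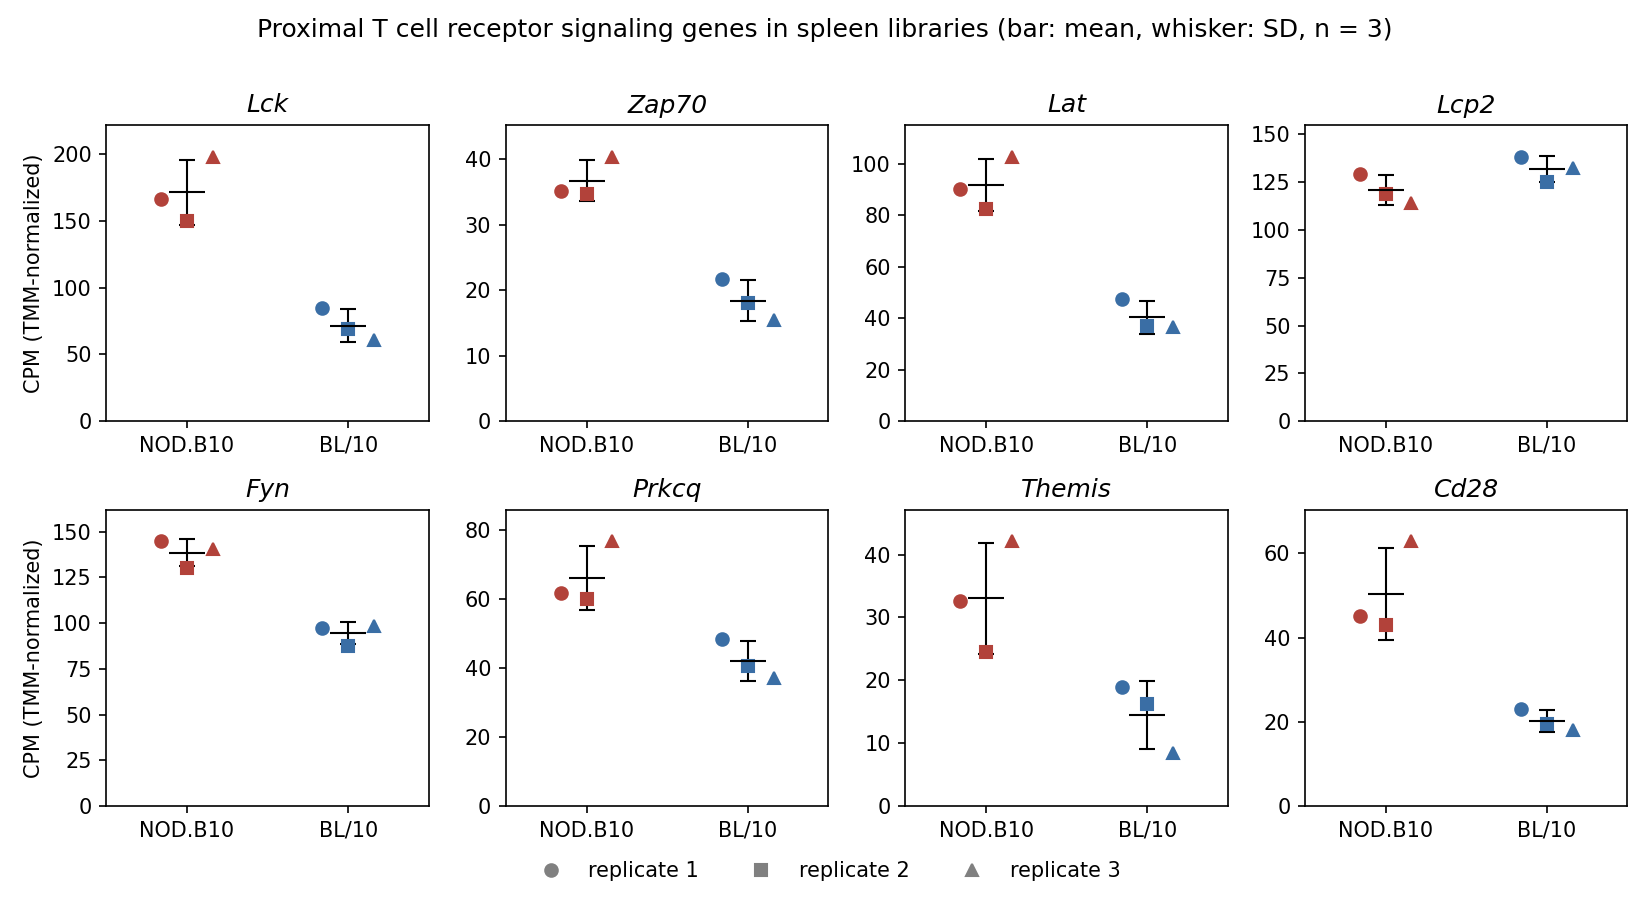
TMM-normalized CPM of the 8 genes in each spleen library of NOD.B10 (red) and BL/10 (blue) mice, with symbols for replicates 1, 2 and 3, a bar at the mean and whiskers of 1 SD (n = 3). The strains do not overlap for Lck, Zap70, Lat, Fyn, Prkcq, Themis and Cd28, and they do for Lcp2, at 121 ± 7.99 CPM in NOD.B10 and 132 ± 6.72 CPM in BL/10.

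Lck, the Src-family kinase that starts the cascade, lies at chr4:129548344-129573641 on the minus strand (build GRCm38, ENSMUSG00000000409). Lck was at 167, 149.7 and 198 CPM in NOD.B10 replicates 1, 2 and 3, and 85.0, 69.4 and 60.5 CPM in BL/10 replicates 1, 2 and 3. The lowest NOD.B10 library was 1.76 times the highest BL/10 library, which was replicate 1. The means were 172 ± 24.6 CPM in NOD.B10 and 71.6 ± 12.4 CPM in BL/10 (SD, n = 3 each), so Lck was 2.39-fold higher in NOD.B10 (log2 fold change 1.26 ± 0.16 SE, adjusted p = 0.00188, edgeR's quasi-likelihood test). Its exons overlap those of the microRNA gene Mir8119, and reads on shared bases were not assigned by the counting settings.

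Zap70, the kinase that docks on the phosphorylated receptor chains, lies at chr1:36761798-36782818 on the plus strand (ENSMUSG00000026117). Zap70 was at 35.2, 34.7 and 40.4 CPM in NOD.B10 replicates 1, 2 and 3, and 21.7, 18.1 and 15.4 CPM in BL/10 replicates 1, 2 and 3. The groups were apart, and the NOD.B10 libraries were within a narrow range, with replicate 3 the highest as for Lck. Zap70 averaged 36.8 ± 3.17 CPM in NOD.B10 and 18.4 ± 3.15 CPM in BL/10 (SD, n = 3 each), a 2.00-fold difference (log2 fold change 1.00 ± 0.14 SE, adjusted p = 0.00324, edgeR's quasi-likelihood test).

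Fyn, another Src-family kinase that associates with the receptor, lies at chr10:39368855-39565381 on the plus strand (ENSMUSG00000019843). Fyn had 145, 130.3 and 141 CPM in NOD.B10 replicates 1, 2 and 3, and 97.5, 87.4 and 98.5 CPM in BL/10 replicates 1, 2 and 3. The strains did not overlap, but the step between them was smaller than for Lck, and NOD.B10 replicate 1 rather than replicate 3 was the highest. Fyn averaged 139 ± 7.41 CPM in NOD.B10 and 94.5 ± 6.10 CPM in BL/10 (SD, n = 3 each), which is 1.47-fold (log2 fold change 0.55 ± 0.090 SE, adjusted p = 0.0063, edgeR's quasi-likelihood test). Without the 2 libraries labelled 36 weeks its log2 fold change was 0.51 and the call was lost (adjusted p = 0.0649 in the same edgeR test).

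Prkcq encodes protein kinase C theta, the isoform that carries the signal toward NF-κB, and lies at chr2:11172108-11301222 on the plus strand (ENSMUSG00000026778). Prkcq was at 61.7, 60.1 and 76.8 CPM in NOD.B10 replicates 1, 2 and 3, and 48.4, 40.5 and 37.2 CPM in BL/10 replicates 1, 2 and 3. No BL/10 library reached the lowest NOD.B10 library, although BL/10 replicate 1 came within a factor of 1.24 of it. The means were 66.2 ± 9.23 CPM in NOD.B10 and 42.0 ± 5.77 CPM in BL/10 (SD, n = 3 each), a 1.58-fold difference (log2 fold change 0.66 ± 0.14 SE, adjusted p = 0.0164, edgeR's quasi-likelihood test). The call depended on single libraries. The adjusted p of edgeR was 0.052 without NOD.B10 replicate 3 (log2 fold change 0.54), 0.0522 without BL/10 replicate 2 (0.63), 0.0588 without BL/10 replicate 3 (0.57) and 0.195 without the 2 libraries labelled 36 weeks (0.45).

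Lat, the transmembrane adaptor phosphorylated by Zap70, lies at chr7:126363824-126369570 on the minus strand (ENSMUSG00000030742), with exons that overlap Mir7058. Lat stood at 90.2, 82.6 and 103 CPM in NOD.B10 replicates 1, 2 and 3, and 47.7, 36.8 and 36.5 CPM in BL/10 replicates 1, 2 and 3. The strains were apart by more than the range within either, and NOD.B10 replicate 3 was again the highest and BL/10 replicate 1 the highest of its strain. Lat averaged 91.9 ± 10.2 CPM in NOD.B10 and 40.3 ± 6.37 CPM in BL/10 (SD, n = 3 each), 2.28-fold higher in NOD.B10 (log2 fold change 1.19 ± 0.14 SE, adjusted p = 0.00133, edgeR's quasi-likelihood test).

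Lcp2, the cytosolic adaptor that binds Lat through Gads, lies at chr11:34046920-34092295 on the plus strand (ENSMUSG00000002699) and overlaps exons of 4930469K13Rik. Lcp2 had 129.5, 119 and 114 CPM in NOD.B10 replicates 1, 2 and 3, and 138, 125 and 133 CPM in BL/10 replicates 1, 2 and 3. The ranges of the strains overlapped, the highest NOD.B10 library lying between the lowest and the middle BL/10 libraries, and the library with the highest T cell genes, NOD.B10 replicate 3, was here the lowest of all. The means were 121 ± 7.99 CPM in NOD.B10 and 132 ± 6.72 CPM in BL/10 (SD, n = 3 each). The difference did not pass the threshold (log2 fold change -0.13 ± 0.090 SE, adjusted p = 0.353, edgeR's quasi-likelihood test), and its 95% interval on the log2 scale ran from -0.34 to 0.082.

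Themis, a T lineage protein that binds Grb2 and tunes receptor signals during thymic selection, lies at chr10:28668360-28883818 on the plus strand (ENSMUSG00000049109) and overlaps exons of 4930519F09Rik. Themis was at 32.5, 24.5 and 42.1 CPM in NOD.B10 replicates 1, 2 and 3, and 18.9, 16.3 and 8.47 CPM in BL/10 replicates 1, 2 and 3. Relative to its mean, this gene varied most of the 8 within a strain. BL/10 replicate 3 lay far below the other 2 BL/10 libraries and NOD.B10 replicate 2 below the other 2 of its strain. The strains nevertheless did not overlap. The raw counts behind these levels ran from 149 reads in BL/10 replicate 3 to 749 in NOD.B10 replicate 3. Themis averaged 33.0 ± 8.80 CPM in NOD.B10 and 14.5 ± 5.41 CPM in BL/10 (SD, n = 3 each), a 2.28-fold difference (log2 fold change 1.19 ± 0.30 SE, adjusted p = 0.0349, edgeR's quasi-likelihood test). The call was lost without NOD.B10 replicate 1 (adjusted p of edgeR 0.098, log2 fold change 1.20) and without NOD.B10 replicate 3 (0.116 and 0.98). It was also lost without BL/10 replicate 2 (0.0743 and 1.27) and without BL/10 replicate 3 (0.0556 and 0.90). With the replicate number as a factor, the call was lost too (adjusted p of edgeR 0.0591, log2 fold change 1.21). Without both libraries labelled 36 weeks, which leaves 1 BL/10 library, the call was lost as well and the log2 fold change was 0.81.

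Cd28, the costimulatory receptor, lies at chr1:60716800-60773359 on the plus strand (ENSMUSG00000026012). Cd28 was at 45.2, 42.9 and 62.8 CPM in NOD.B10 replicates 1, 2 and 3, and 23.1, 19.4 and 18.0 CPM in BL/10 replicates 1, 2 and 3. The BL/10 libraries were close together and all NOD.B10 libraries were well above them, the lowest at 1.86 times the highest BL/10 library. With means of 50.3 ± 10.9 CPM in NOD.B10 and 20.2 ± 2.62 CPM in BL/10 (SD, n = 3 each), Cd28 was 2.49-fold higher in NOD.B10 (log2 fold change 1.32 ± 0.17 SE, adjusted p = 0.00223, edgeR's quasi-likelihood test), the highest fold of the 8.

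Levels of different genes were compared per length, as CPM per kb of exon (RPKM). In NOD.B10 spleens Lck was highest, at 58.5 ± 8.39 RPKM (SD, n = 3), followed by Lat at 33.2 ± 3.69, Fyn at 31.7 ± 1.70 and Lcp2 at 27.1 ± 1.79. Lat and Fyn were not apart, since their ranges overlapped, whereas no other neighbors among these 4 overlapped. Zap70 followed at 12.3 ± 1.06 RPKM, Prkcq at 9.35 ± 1.30, Cd28 at 8.22 ± 1.78 and Themis at 3.66 ± 0.975, and the ranges of Prkcq and Cd28 overlapped. The order differed at the top in BL/10 spleens. There Lcp2 was highest at 29.6 ± 1.51 RPKM, then Lck at 24.5 ± 4.23, Fyn at 21.7 ± 1.40 and Lat at 14.6 ± 2.30, with overlapping ranges between Lcp2 and Lck and between Lck and Fyn. Zap70 at 6.15 ± 1.05 and Prkcq at 5.93 ± 0.814 RPKM were not apart in BL/10, and Cd28 at 3.29 ± 0.428 and Themis at 1.61 ± 0.599 were again the lowest.

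The genes of the receptor itself were compared between the strains as well. Of 10 genes for the receptor chains and coreceptors, 8 were called higher, none lower and 2 not, with a median log2 fold change of 1.13. Cd247, the zeta chain, was 2.73-fold higher (log2 fold change 1.45 ± 0.22 SE, adjusted p = 0.00477, edgeR's quasi-likelihood test). Cd3e was 2.68-fold higher at 44.3 ± 5.60 CPM in NOD.B10 and 16.5 ± 1.60 CPM in BL/10 (log2 fold change 1.42 ± 0.13 SE, adjusted p = 0.000414, edgeR's quasi-likelihood test), Cd3g 2.49-fold and Trac, the constant region of the alpha chain, 2.37-fold. The 2 genes not called were those of the CD8 coreceptor. Cd8a was at 53.2, 50.1 and 73.1 CPM in the NOD.B10 libraries and 46.3, 61.4 and 49.9 CPM in the BL/10 libraries (log2 fold change 0.16 ± 0.17 SE, adjusted p = 0.528, edgeR's quasi-likelihood test). Cd8b1 was at 24.6, 27.2 and 40.8 CPM and 39.0, 46.9 and 36.5 CPM in the same order (log2 fold change -0.40 ± 0.20 SE, adjusted p = 0.19, edgeR's quasi-likelihood test). The libraries of both strains overlapped for each CD8 gene, while Cd4, named after its value was seen, averaged 207 ± 21.4 CPM in NOD.B10 and 106 ± 23.6 CPM in BL/10 with no overlap (log2 fold change 0.96 ± 0.17 SE, adjusted p = 0.00805, edgeR's quasi-likelihood test). Without NOD.B10 replicate 3, Cd8b1 was called lower (log2 fold change -0.65, adjusted p = 0.0394, edgeR's quasi-likelihood test), and without both libraries labelled 36 weeks 4 of the 10 genes were called.

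Each gene was then set against the receptor complex in the same library, as its CPM in percent of the summed CPM of Cd3d, Cd3e, Cd3g and Cd247. That sum was 294, 274 and 358 CPM in NOD.B10 replicates 1, 2 and 3 and 149, 124 and 101 CPM in BL/10 replicates 1, 2 and 3, and its mean was 2.47-fold higher in NOD.B10. Relative to it, Lck was at 56.6, 54.6 and 55.4% in NOD.B10 replicates 1, 2 and 3 and 57.1, 55.8 and 59.8% in BL/10 replicates 1, 2 and 3, and the strains overlapped. Cd28 likewise showed overlap, with 15.3, 15.7 and 17.6% in NOD.B10 replicates 1, 2 and 3 and 15.5, 15.6 and 17.8% in BL/10 replicates 1, 2 and 3. Lat (29.8 ± 0.976% in NOD.B10 and 32.6 ± 3.25% in BL/10, SD, n = 3 each) and Themis (10.6 ± 1.47% in NOD.B10 and 11.4 ± 2.62% in BL/10) also overlapped. For the other 4 genes every BL/10 library had a higher ratio than every NOD.B10 library, a pattern found in 90.8% of all genes tested, because the denominator itself differs between the strains.

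Zap70 was at 11.9, 12.7 and 11.3% in NOD.B10 replicates 1, 2 and 3 and 14.6, 14.6 and 15.2% in BL/10 replicates 1, 2 and 3 of the receptor sum, a small step on the log2 scale (-0.30). Prkcq was at 21.5 ± 0.478% in NOD.B10 and 33.9 ± 2.41% in BL/10, and Fyn at 45.3 ± 5.29% in NOD.B10 and 77.7 ± 17.1% in BL/10. Lcp2 differed most, at 44.0, 43.4 and 31.9% in NOD.B10 replicates 1, 2 and 3 and 92.9, 100.4 and 131% in BL/10 replicates 1, 2 and 3, which is 2.72 times as much in BL/10. In each of these 4 cases the exact two-sided permutation test over libraries gave p = 0.1, the smallest p that 3 libraries against 3 can give, so no single ratio could pass 0.05. For Lck the exact permutation p was 0.200, for Lat 0.300, for Themis 0.600 and for Cd28 0.700. The sign of the difference for Themis and Cd28 turned when single libraries were left out, with ranges on the log2 scale of -0.29 to 0.032 and -0.069 to 0.056. The choice of denominator mattered as well. Against the sum of the 12 T cell markers in place of the CD3 chains, the log2 difference was 0.33 for Lck, 0.37 for Cd28, 0.073 for Zap70, -0.38 for Fyn and -1.07 for Lcp2. With that denominator Lck, Lat and Cd28 went from overlap to all NOD.B10 libraries above all BL/10 libraries (exact permutation p = 0.1 each), a pattern found in 2.2% of all genes tested, and Zap70 went from BL/10 above to overlap (exact permutation p = 0.5). Lcp2, Fyn and Prkcq kept every BL/10 library above every NOD.B10 library, as did 82.8% of all genes tested. The marker sum itself was 1.93 times as high in NOD.B10.

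**Figure D2:**
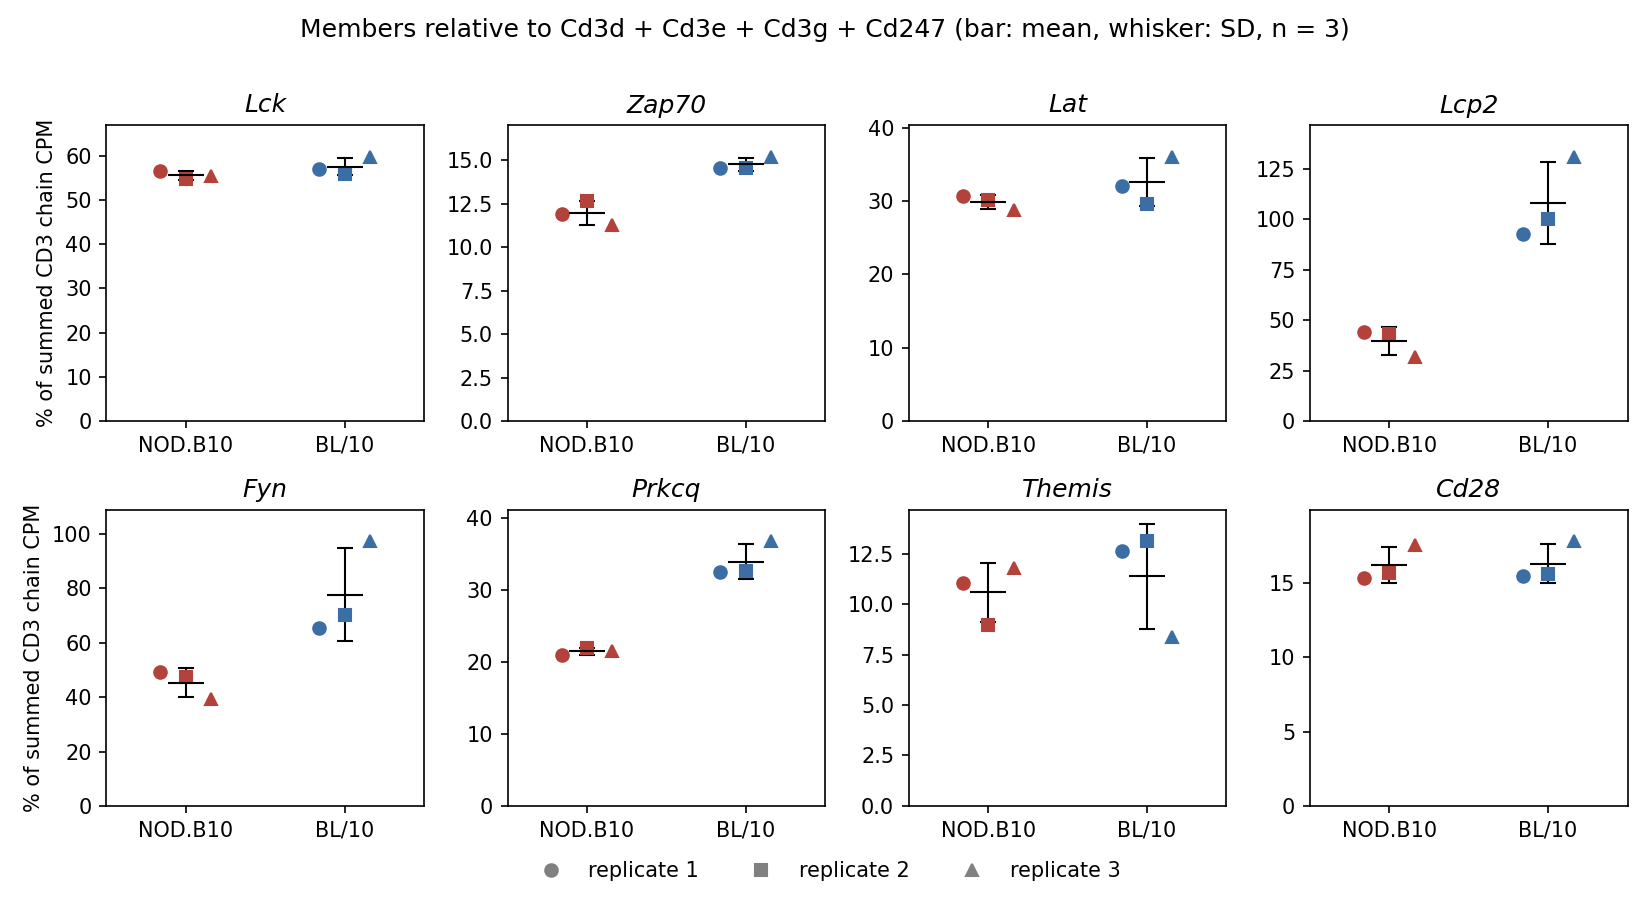
CPM of each of the 8 genes as a percentage of the summed CPM of Cd3d, Cd3e, Cd3g and Cd247 in the same library, for NOD.B10 (red) and BL/10 (blue), with a bar at the mean and whiskers of 1 SD (n = 3). The strains overlap for Lck, Lat, Themis and Cd28, and the BL/10 libraries lie above the NOD.B10 libraries for Zap70, Lcp2, Fyn and Prkcq, with the widest step for Lcp2.

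Among the other kinases and adaptors of the proximal cascade, 8 of 20 genes tested were called higher and 1 lower, with a median log2 fold change of 0.42. A further listed gene, Lime1, had at most 7 reads in any library and was not tested. Trat1, the adaptor TRIM, showed the highest fold, with 12.8, 8.41 and 16.1 CPM in the NOD.B10 libraries and 3.86, 3.15 and 1.59 CPM in the BL/10 libraries (log2 fold change 2.12 ± 0.35 SE, adjusted p = 0.00635, edgeR's quasi-likelihood test). Those levels were low, and the strains did not overlap. Cd6, a receptor that recruits Lcp2, was 3.34-fold higher at 63.6 ± 8.45 CPM in NOD.B10 and 19.0 ± 4.46 CPM in BL/10 (log2 fold change 1.74 ± 0.18 SE, adjusted p = 0.00095, edgeR's quasi-likelihood test), and the adaptor Sit1 was 2.70-fold higher.

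The most abundant genes of this list that were not called were Ptprc and Grb2. Ptprc, the phosphatase CD45 that activates Src-family kinases, averaged 1335 ± 229 CPM in NOD.B10 and 932 ± 182 CPM in BL/10 and did not pass (log2 fold change 0.52 ± 0.18 SE, adjusted p = 0.09, edgeR's quasi-likelihood test), and the general adaptor Grb2 averaged 161 ± 10.7 CPM in NOD.B10 and 145 ± 11.9 CPM in BL/10 (log2 fold change 0.15 ± 0.10 SE, adjusted p = 0.321, edgeR's quasi-likelihood test). The 1 gene called lower, named after its value was seen, was Unc119, a lipid-binding partner of Lck and Fyn, at 47.6 ± 4.10 CPM in NOD.B10 and 62.7 ± 3.78 CPM in BL/10 (log2 fold change -0.40 ± 0.096 SE, adjusted p = 0.0281, edgeR's quasi-likelihood test). The 9 calls of this list became 5 without NOD.B10 replicate 1, 5 without NOD.B10 replicate 3 and 4 without both libraries labelled 36 weeks.

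Negative regulators of the same steps were read next. Of 16 genes, 4 were called higher, none lower and 12 not, and the median log2 fold change was 0.22. Cd5, an inhibitory receptor of T cells, was at 59.5, 48.7 and 62.5 CPM in NOD.B10 libraries and 24.4, 18.5 and 14.4 CPM in BL/10 libraries, a 2.98-fold difference (log2 fold change 1.57 ± 0.19 SE, adjusted p = 0.00185, edgeR's quasi-likelihood test). Dgka, the kinase that removes diacylglycerol, was 2.24-fold higher (log2 fold change 1.17 ± 0.22 SE, adjusted p = 0.0104, edgeR's quasi-likelihood test), and the phosphatase Ptpn22, which acts on Lck and Zap70, 1.68-fold (log2 fold change 0.75 ± 0.14 SE, adjusted p = 0.0122, edgeR's quasi-likelihood test). The ubiquitin ligase Cbl was 1.26-fold higher. The abundant phosphatase Ptpn6 averaged 368 ± 42.4 CPM in NOD.B10 and 343 ± 43.6 CPM in BL/10 (log2 fold change 0.10 ± 0.14 SE, adjusted p = 0.635, edgeR's quasi-likelihood test), and Csk, which restrains Lck, 319 ± 20.3 CPM in NOD.B10 and 264 ± 34.3 CPM in BL/10 (log2 fold change 0.27 ± 0.12 SE, adjusted p = 0.158, edgeR's quasi-likelihood test). Neither passed the threshold, and their libraries overlapped between strains. The 4 calls became 7 without BL/10 replicate 1 and 2 without both libraries labelled 36 weeks.

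The branches further downstream were read in the same way. In the Ras, calcium and NF-κB branches, 1 of 19 genes was called higher and 2 lower, with a median log2 fold change of 0.13. Nfatc2, a transcription factor released by calcineurin, averaged 38.7 ± 3.65 CPM in NOD.B10 and 23.1 ± 1.84 CPM in BL/10 (log2 fold change 0.74 ± 0.11 SE, adjusted p = 0.00376, edgeR's quasi-likelihood test). Both genes called lower act in different branches, the calcium channel subunit Orai1 at 22.0 ± 0.559 CPM in NOD.B10 and 30.4 ± 3.03 CPM in BL/10 (log2 fold change -0.46 ± 0.10 SE, adjusted p = 0.0196, edgeR's quasi-likelihood test) and the kinase Mapk3 (ERK1) at 73.2 ± 1.48 CPM in NOD.B10 and 95.9 ± 7.33 CPM in BL/10 (log2 fold change -0.39 ± 0.086 SE, adjusted p = 0.0204, edgeR's quasi-likelihood test). Nfatc3, a relative of Nfatc2, averaged 224 ± 0.520 CPM in NOD.B10 and 189 ± 2.65 CPM in BL/10 and did not pass (log2 fold change 0.25 ± 0.084 SE, adjusted p = 0.0782, edgeR's quasi-likelihood test). The count of 3 calls moved with the method, to 7 with DESeq2, 8 with limma-voom, 6 with the replicate block and 5 each without the hemoglobin, immunoglobulin and pancreas genes and with a looser filter. It also moved with single libraries, from 1 call without NOD.B10 replicate 1, without NOD.B10 replicate 2, without NOD.B10 replicate 3 or without both libraries labelled 36 weeks to 9 without BL/10 replicate 1.

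Of 11 genes for CD28 relatives, their ligands and the lipid kinase they recruit, 3 were called higher and none lower (median log2 fold change 0.37). Icos, the costimulatory receptor of activated and follicular helper T cells, was at 24.4, 24.4 and 24.2 CPM in the NOD.B10 libraries and 16.4, 14.4 and 10.8 CPM in the BL/10 libraries (log2 fold change 0.81 ± 0.15 SE, adjusted p = 0.0113, edgeR's quasi-likelihood test). Pik3cd, the leukocyte lipid kinase, was 1.47-fold higher, and Cd274, the ligand PD-L1, 1.29-fold. The most abundant genes not called were Pik3r1, at 221 ± 4.76 CPM in NOD.B10 and 254 ± 53.9 CPM in BL/10, and the inhibitory receptor Btla, at 267 ± 57.8 CPM in NOD.B10 and 201 ± 90.5 CPM in BL/10. The 3 calls became 5 with limma-voom, 8 without BL/10 replicate 1, 1 without NOD.B10 replicate 1 and 0 without both libraries labelled 36 weeks.

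Relatives of the 8 genes, listed for their use by the B cell receptor or in other cells, were read as a comparison. Their levels in T cells were not measured, so the list is not one of genes absent from T cells. Of 20 such genes, 1 was called higher and 1 lower, with a median log2 fold change of 0.12. Prkca, a protein kinase C isoform other than theta, was lower in NOD.B10, with 31.3, 35.0 and 26.8 CPM in its libraries against 69.4, 47.1 and 64.4 CPM in those of BL/10 (log2 fold change -0.96 ± 0.16 SE, adjusted p = 0.0076, edgeR's quasi-likelihood test). Prkch, the eta isoform, was 1.54-fold higher (log2 fold change 0.62 ± 0.10 SE, adjusted p = 0.00708, edgeR's quasi-likelihood test). Syk, the relative of Zap70 in B cells and myeloid cells, averaged 594 ± 77.3 CPM in NOD.B10 and 458 ± 78.0 CPM in BL/10 (log2 fold change 0.37 ± 0.16 SE, adjusted p = 0.143, edgeR's quasi-likelihood test), and the Src-family kinase Lyn 272 ± 13.0 CPM in NOD.B10 and 239 ± 24.8 CPM in BL/10 (log2 fold change 0.19 ± 0.11 SE, adjusted p = 0.261, edgeR's quasi-likelihood test). For both, the libraries of the strains overlapped. The 2 calls became 6 without BL/10 replicate 1 and 1 without both libraries labelled 36 weeks.

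**Figure D3:**
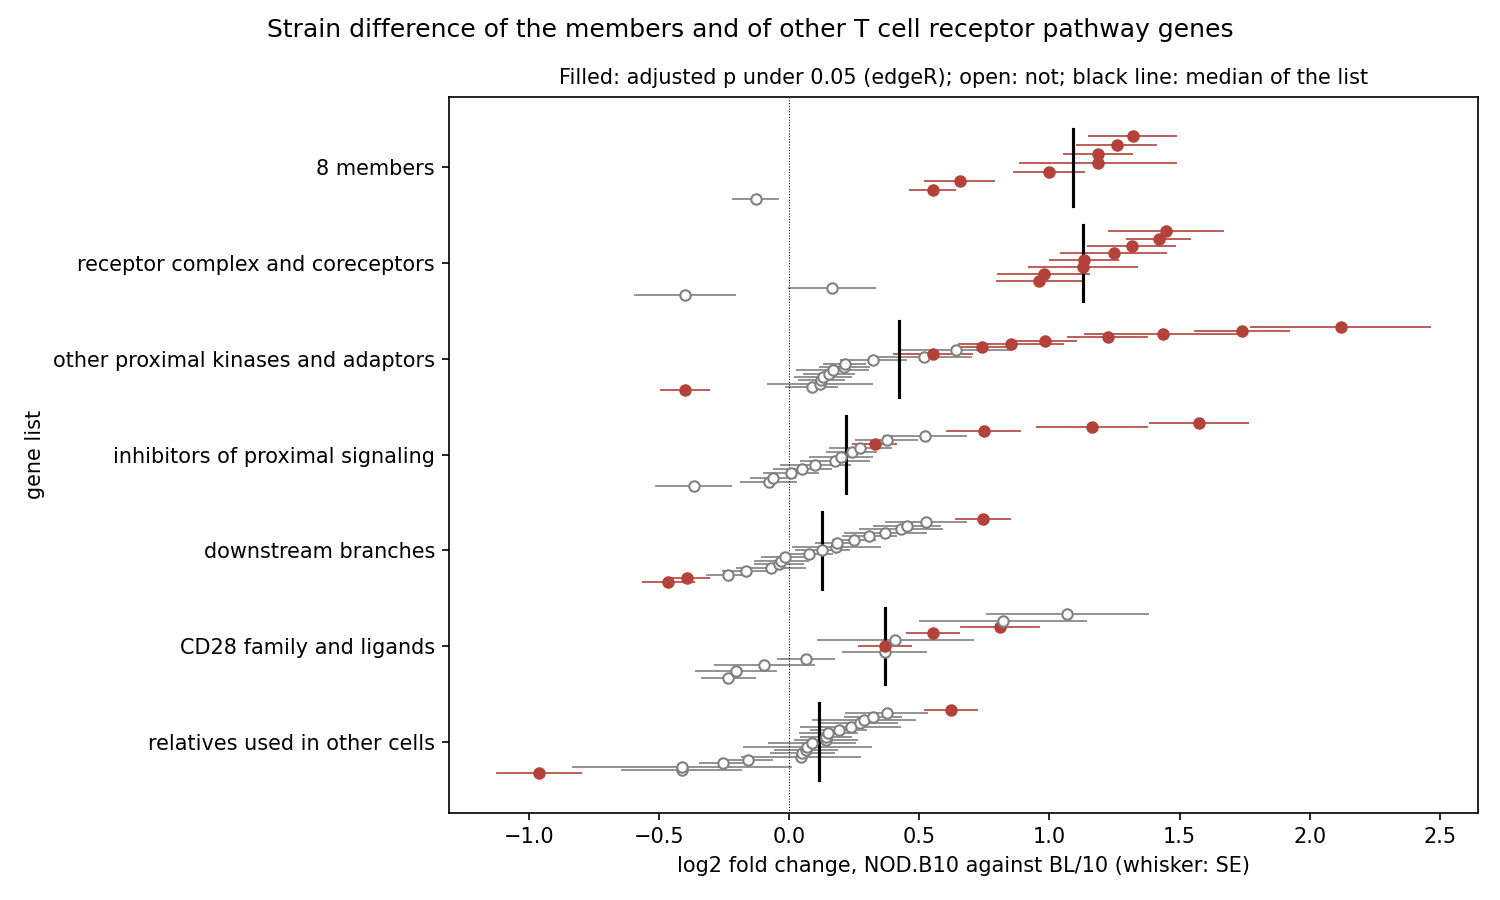
Log2 fold changes of NOD.B10 against BL/10 for the 8 genes and for 6 lists of other genes of the pathway, with whiskers of 1 SE, filled symbols for genes below the 0.05 threshold of edgeR's quasi-likelihood test and a black line at the median of each list. The medians are 1.09 for the 8 genes, 1.13 for the receptor complex and 0.13 for the downstream branches.

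Markers of the cells that can hold these transcripts were also compared. Of 12 T cell markers outside the signaling lists, 11 were called higher and none lower (median log2 fold change 0.91), and they summed to 866, 778 and 1176 CPM in the NOD.B10 libraries and 555, 472 and 431 CPM in the BL/10 libraries. Every NOD.B10 library was above every BL/10 library, with NOD.B10 replicate 3 the highest and BL/10 replicate 3 the lowest, as for Lck and Zap70. The most abundant was Ms4a4b, at 181 ± 31.5 CPM in NOD.B10 and 111 ± 22.7 CPM in BL/10. Of 6 regulatory T cell markers 5 were called higher, with sums of 57.8, 67.8 and 69.9 CPM in the NOD.B10 libraries and 45.0, 35.8 and 31.2 CPM in the BL/10 libraries and Ikzf2 the most abundant. Of 5 gamma delta T cell markers tested none was called, with sums of 29.6, 27.0 and 30.4 CPM in the NOD.B10 libraries and 11.8, 22.3 and 20.0 CPM in the BL/10 libraries and Sox13 the most abundant, and Il17a had 0 reads in all 6 libraries. The part of these cells in the differences above was not tested.

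Cells other than T cells that use some of the 8 genes were followed in the same manner. Of 10 natural killer cell markers, 1 was called higher and 2 lower, and they summed to 187, 131 and 177 CPM in the NOD.B10 libraries and 159, 197 and 140.4 CPM in the BL/10 libraries, so the strains overlapped. Gzma was the most abundant, at 37.8 ± 13.4 CPM in NOD.B10 and 32.4 ± 7.84 CPM in BL/10. Platelet and megakaryocyte markers, 2 of 10 called lower, summed to 765, 911 and 609 CPM in the NOD.B10 libraries and 1429, 776 and 1131 CPM in the BL/10 libraries, with Ppbp the most abundant at 378 ± 76.3 CPM in NOD.B10 and 565 ± 174 CPM in BL/10. The sums of the strains overlapped. Neutrophil markers, 10 of 11 called lower, summed to 2271, 2531 and 2181 CPM in the NOD.B10 libraries and 6182, 12901 and 11309 CPM in the BL/10 libraries, 4.35 times as much in BL/10 on average. S100a9 was the most abundant of them, at 1077 ± 127 CPM in NOD.B10 and 4491 ± 1486 CPM in BL/10. Mast cell and basophil markers, 6 of 7 called lower, summed to 13.2, 15.9 and 14.9 CPM in the NOD.B10 libraries and 35.8, 51.7 and 42.5 CPM in the BL/10 libraries, with Gata2 the most abundant. None of the 10 B cell markers was called, and they summed to 4447, 3801 and 5012 CPM in the NOD.B10 libraries and 5078, 2855 and 3095 CPM in the BL/10 libraries, with Ms4a1 the most abundant. Of these lists, no marker was at 0 in all libraries, and the part of these cells in the levels of Lcp2, Fyn and the rest of the 8 genes was not tested.

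The profiles of the genes across the 6 libraries were compared next. The Pearson correlation of log2 CPM with Lck was 0.996 for Zap70, 0.996 for Lat, 0.994 for Cd28, 0.983 for Prkcq, 0.948 for Fyn and 0.938 for Themis, and -0.65 for Lcp2. Among the 7 genes called higher the lowest value was 0.796, between Fyn and Themis. These values are descriptions over libraries that fall into 2 strains and share their depth, so they hold the strain difference itself. Of all other genes tested, the 6 with the highest correlation with the mean standardized profile of the 8 genes were Enpp2 (r = 0.999), Olfr433 (0.999), Washc4 (0.998), Zmynd11 (0.998), Tnfrsf18 (0.998) and Ap1s3 (0.997). Enpp2, which encodes the secreted enzyme autotaxin, was at 179.8, 159 and 188 CPM in NOD.B10 and 125, 101 and 101 CPM in BL/10. Tnfrsf18, the receptor GITR of regulatory and activated T cells, was at 22.5, 18.7 and 24.1 CPM in NOD.B10 and 13.1, 10.7 and 9.43 CPM in BL/10 (log2 fold change 0.97 ± 0.16 SE, adjusted p = 0.00573, edgeR's quasi-likelihood test). Washc4, a subunit of the WASH complex, was at 99.0, 93.7 and 102 CPM in NOD.B10 and 82.9, 72.4 and 70.9 CPM in BL/10, a much smaller step of the same shape. Olfr433 had at most 54 reads in a library, so its profile rests on few reads.

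The bases before the gene starts were searched because 7 of the genes moved together. The RefSeq promoter table (build GRCm38.p6) held 11 starts for 7 of the 8 genes, namely Lck, Zap70, Lat, Lcp2, Fyn, Prkcq and Themis, and no entry for Cd28 was found in it. The 250 bases before each start were searched on both strands for AGGAAG (a core of ETS factors), TGTGGT (RUNX), CTTTGA (TCF7 and LEF1), AGATAA (bound by Gata3), and CAGNTG (E-box). The motif AGGAAG was found in 7 of the 11, against 29.5% of all 32851 promoters of the same length, and CAGNTG in 6 of the 11, against 44.8%. TGTGGT was in 2 of the 11 (14% of all), CTTTGA in 3 (13.8%) and AGATAA in 1 (9.99%). Some of the 11 belong to the same gene, and both Themis windows overlap, so they are not independent. For the Zap70 window at chr1:36764265-36764514, the bases after its start matched no annotated Zap70 transcript. That window held AGGAAG and TGTGGT and is in the counts above. The GC share of the 11 ran from 41.2% (Lcp2) to 72.4% (Prkcq), against a median of 52.4% for all promoters. The Lck window below, before the start of the annotated gene, held AGGAAG at 3 places and TGTGGT once. Zap70 and Lat are shown as further genes that were higher in NOD.B10 and held AGGAAG, Fyn as one that was higher without it, and Lcp2 as the gene that did not pass, whose window held AGGAAG and, alone among the 11, AGATAA. Capitals mark any of the 5 motifs on either strand, and each run reads 5′ to 3′ toward the start.
Lck (minus strand, chr4:129573642-129573891): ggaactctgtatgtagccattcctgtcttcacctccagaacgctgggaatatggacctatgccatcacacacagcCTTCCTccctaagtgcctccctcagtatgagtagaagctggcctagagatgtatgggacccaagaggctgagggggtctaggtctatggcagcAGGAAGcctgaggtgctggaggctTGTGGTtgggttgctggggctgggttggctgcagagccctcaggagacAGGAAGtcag
Zap70 (plus strand, chr1:36761548-36761797): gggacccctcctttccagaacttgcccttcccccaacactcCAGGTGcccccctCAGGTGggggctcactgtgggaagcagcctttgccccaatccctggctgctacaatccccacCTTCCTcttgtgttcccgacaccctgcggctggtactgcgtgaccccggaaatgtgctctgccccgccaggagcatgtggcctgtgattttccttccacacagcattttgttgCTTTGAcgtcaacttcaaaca
Lat (minus strand, chr7:126369569-126369818): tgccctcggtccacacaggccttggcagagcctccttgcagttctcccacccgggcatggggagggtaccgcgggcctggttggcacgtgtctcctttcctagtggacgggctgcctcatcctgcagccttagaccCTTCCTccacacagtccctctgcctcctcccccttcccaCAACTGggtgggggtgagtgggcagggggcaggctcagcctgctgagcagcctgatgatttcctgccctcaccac
Fyn (plus strand, chr10:39369549-39369798): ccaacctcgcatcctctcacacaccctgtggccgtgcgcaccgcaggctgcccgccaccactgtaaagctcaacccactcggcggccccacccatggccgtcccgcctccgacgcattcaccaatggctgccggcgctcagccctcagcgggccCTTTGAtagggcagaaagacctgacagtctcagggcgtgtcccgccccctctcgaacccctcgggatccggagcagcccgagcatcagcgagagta
Lcp2 (plus strand, chr11:34046678-34046927): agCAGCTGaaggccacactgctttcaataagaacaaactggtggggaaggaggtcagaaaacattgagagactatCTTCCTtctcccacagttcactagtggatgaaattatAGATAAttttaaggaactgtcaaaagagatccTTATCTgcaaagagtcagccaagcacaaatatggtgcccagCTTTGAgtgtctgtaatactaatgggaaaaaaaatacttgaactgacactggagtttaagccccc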

How the data were processed

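RNA of 6 spleens was sequenced by the authors as single reads. The authors deposited a count of reads for every gene in each library. Per the file headers featureCounts v1.5.1 made it from exons grouped by gene (GRCm38, Ensembl release 84), unstranded, and by its defaults a read with more than 1 position or more than 1 gene was dropped. The submitters' processing notes name bcl2fastq and HISAT2 2.0.5, and the study's methods name Tophat2 as the aligner. The deposited exon length of each gene was used for RPKM. Symbols were taken from GENCODE M21, where 47224 of 47729 identifiers matched. Strains were taken from the sample descriptions, no expression value being used for this.

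Counts were filtered by filterByExpr, normalized by TMM and compared by the quasi-likelihood test of edgeR 4.0.16 (R 4.3.3), BL/10 being the reference, with Benjamini-Hochberg adjustment over 15330 genes and a threshold of 0.05. The edgeR step was tested on simulated data. Ratios were compared by an exact two-sided permutation test. Alternatives were DESeq2 1.42.0, limma 3.58.1 (voom with quality weights), other size factors and filters, a replicate block, a threshold of 0.01, and leaving out libraries. Counts of replicates differed by more than sampling noise (chi-square per degree of freedom at least 12.5). The genes named were all 8, up to 4 called genes with the largest change and up to 2 of the most abundant not called in each pathway list, the 6 most alike, and the most abundant gene of each marker list. The 8 genes and all lists were chosen with earlier results of these data known. The lists came from general knowledge, and only genes that passed the filter were counted in them.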

Additional observations from a re-analysis of the deposited data

How the results depend on the processing

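No log2 fold change of the 8 genes changed sign under the 15 alternative fits, and Lck, Zap70, Lat and Cd28 passed the threshold in all 15, Fyn in 14, Prkcq in 11 and Themis in 9. With both libraries labelled 36 weeks left out, 1001 genes were called across the table, 4 of the 8 genes and 12 genes of the pathway lists, and the median log2 fold change of the 8 was 0.79, in place of 2656, 7, 29 and 1.09. That fit has 1 BL/10 library, assumed to vary like the others, and fewer samples. An adjusted p under 0.01 left 1035 genes across the table, 5 of the 8 genes, Prkcq and Themis being lost, and 16 in the pathway lists. Leaving out 1 library at a time gave 1269 to 4107 genes across the table, 5 to 7 of the 8 genes, 20 to 50 of the pathway lists and medians of 0.89 to 1.22. The replicate block, with the replicate number as a factor, gave 2889 genes across the table, 6 of the 8 genes, Themis being lost (adjusted p = 0.0591, edgeR), a median of 1.10 and 32 in the pathway lists. Same-numbered libraries did not deviate together (r = 0.032, 0.17 and -0.084), so the numbers were not taken as pairs. With the T cell markers as the denominator, the log2 ratio difference was 0.33 for Lck, 0.073 for Zap70, 0.26 for Lat, -1.07 for Lcp2, -0.38 for Fyn, -0.28 for Prkcq, 0.29 for Themis and 0.37 for Cd28, against -0.051, -0.30, -0.12, -1.44, -0.76, -0.66, -0.085 and -0.0085 in that order with the CD3 chains. Where the values moved, the cause was not tested.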

Other observations

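Among the remaining marker lists, plasma cell markers were higher, with 6 of 8 genes called higher and none lower. They summed to 3349, 3854 and 3729 CPM in the NOD.B10 libraries and 2700.1, 2419.9 and 2123 CPM in the BL/10 libraries, and every NOD.B10 library was above every BL/10 library. Jchain was the most abundant, at 2880.0 ± 224 CPM in NOD.B10 and 1948 ± 254 CPM in BL/10. Of 8 red pulp macrophage markers 1 was called higher and 2 lower (median log2 fold change -0.037), and they summed to 4474, 3919.8 and 3362 CPM in the NOD.B10 libraries and 3926, 3991 and 4523 CPM in the BL/10 libraries. Of 8 dendritic cell markers 1 was called higher and none lower, with sums of 294, 264 and 292 CPM in the NOD.B10 libraries and 275, 294 and 278 CPM in the BL/10 libraries and Itgax the most abundant. Of 6 stromal markers tested, 1 was called higher, with Cxcl13 the most abundant and sums of 715, 605 and 663 CPM in the NOD.B10 libraries and 568, 511 and 604 CPM in the BL/10 libraries. Ccl21a had 1 read in 1 library and was not tested. Reads with more than 1 position were dropped, so that count does not show that the transcript was absent.

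None of 8 proliferation markers was called, although all 8 had negative log2 fold changes (median -0.66). They summed to 2058, 3093 and 1933 CPM in the NOD.B10 libraries and 2309, 4752 and 3500.2 CPM in the BL/10 libraries, with Mki67 the most abundant. Erythroid markers, 1 of 9 called lower, spread widely within each strain, and hemoglobin genes took 3.60, 4.01 and 2.34% of the counts in the NOD.B10 libraries and 2.46, 4.48 and 5.51% in the BL/10 libraries, with Hbb-bs the most abundant. The 1 called lower, named after its value was seen, was Hba-a2, at 7.28 ± 1.88 CPM in NOD.B10 and 3548 ± 1516 CPM in BL/10 (log2 fold change -8.93 ± 0.48 SE, adjusted p = 4.54e-05, edgeR's quasi-likelihood test). Hba-a1 averaged 5889 ± 1440 CPM in NOD.B10 and 4879 ± 2304 CPM in BL/10. Reads with more than 1 position were dropped, and a difference in read mapping between the strains was not tested. Of the 10 pancreas acinar markers tested, all 10 were called lower in NOD.B10, and BL/10 replicate 3, at 109 CPM in sum, was far below BL/10 replicate 1.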
